A study of Mus musculus with 6 samples.

Results

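The 4 reporters described here are mmu-miR-709, mmu-miR-5126, mmu-miR-2137 and mmu-miR-5115 (below without the prefix for mouse), which were found by their exact names among the 1078 mouse microRNA (miRNA) reporters of the array. They were chosen by their very high densities on these arrays or by a suspicion that they read fragments of other RNAs, so their brightness is a description and not a finding. The arrays measured RNA from cultured vascular smooth muscle cells (VSMCs), which make up the contractile layer of arteries. The cells came from C57BL/6 mice aged 8 weeks, from the abdominal part of the aorta, and were grown for several passages. Cultures without treatment (control, n = 3) were set against cultures given TNF-α (n = 3), an inflammatory cytokine. The labels used here name neither its dose nor its duration. The comparison asks which miRNAs differ between untreated and TNF-α-treated cells.

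A miRNA is a short RNA held by an Argonaute protein, and it lowers the output of mRNAs that pair with its seed, the bases near its 5′ end. Entries added to miRNA registries from deep sequencing can also match pieces of more abundant RNAs, and a poly(A)-tailing protocol such as the one used here can label any RNA with a free 3′ end. miR-709 is known from mouse cells as a miRNA that is abundant in the nucleus, where it has been reported to block the processing of the precursor of miR-15a and miR-16-1. Which RNA bound to each spot cannot be read from a density, so the origin of the 4 signals was not tested.

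RefSeq sequences (GRCm38.p6) were matched by name for 2 of the 4, miR-5126 and miR-2137, and are shown because their base content is extreme. The mature strands follow, 5′ to 3′, with the seed (bases 2 to 8) in capitals.
miR-5126: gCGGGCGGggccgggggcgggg
miR-2137: gCCGGCGGgagccccagggag
The first lies at chr1:84695890-84695911 and the second at chrX:72992113-72992133, both on the plus strand. miR-5126 holds 17 G and 5 C in its 22 bases, and it is the only 1 of 1679 mature mouse entries in the table that consists of G and C alone. Its longest run of G is 5 bases, and a run of that length (GGGGG, read on the strand given) occurs in 2.38% of the entries. miR-2137 has 85.7% G and C over 21 bases and no U, against a median of 52.2% over the table, and its GC content is at the 99.7th percentile. The seeds differ at 1 position, G3C, counted from 1 at the 5′ end with the base of miR-5126 first. Bases 4 to 9 of both strands are the same 6 letters, GGCGGG, which 6 of the 1679 entries (0.357%) hold anywhere.

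Matched by exact name, another of those 6 entries, miR-2861, is also a reporter on this array. A further holder, miR-3077-5p, has no reporter of that name. The array does carry miR-3077 and miR-3077*, and neither was matched to it. miR-2861 is shown with the 2 members so that the shared letters, in capitals, can be compared.
miR-5126: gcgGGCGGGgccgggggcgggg
miR-2137: gccGGCGGGagccccagggag
miR-2861: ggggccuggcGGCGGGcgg
miR-2861 lies at chr2:32712819-32712837 on the minus strand, and its letters start at base 11, outside the seed. miR-2861 was lower with TNF-α (log2 -0.41 ± 0.07, SE, adjusted p = 0.00819 in limma), at a mean density of 3186 against 4518 in controls.

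The predicted folds of the 2 precursors differ. The hairpins are shown with the mature strand in capitals.
miR-5126 hairpin: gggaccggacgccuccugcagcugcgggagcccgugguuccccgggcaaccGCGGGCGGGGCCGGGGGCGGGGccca
miR-2137 hairpin: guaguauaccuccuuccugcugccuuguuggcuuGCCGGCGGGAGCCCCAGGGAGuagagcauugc
The hairpin of miR-5126 is 77 bases long (chr1:84695839-84695915) and that of miR-2137 66 bases (chrX:72992079-72992144). RNAfold gave the first a free energy of -48.4 kcal/mol, or -62.9 per 100 bases, and 3.28% of the 1005 mouse hairpins in the table were at least as stable per base. The second reached -24.6 kcal/mol, or -37.3 per 100 bases, close to the median of -40.6. In the predicted fold 68.2% of the mature bases of miR-5126 were paired, against 81.0% for miR-2137 and a median of 81.0% over all mature entries. By the RefSeq gene table the hairpin of miR-5126 lies inside Dner, a gene for a Notch ligand, on the opposite strand, and that of miR-2137 inside Zfp185, a gene for a LIM-domain protein, on the same strand. The gene of miR-709 lies inside Rfx1, which encodes a transcription factor.

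A background limit was set per array at the commonest density plus 3 SD, taken from the values under that peak, and 209 reporters exceeded it on all 6 arrays. The peak lay at 66.0 to 76.2 in controls and was higher on each TNF-α array (81.1 to 90.8), so an effect of the array set and an effect of the treatment cannot be told apart. All 4 members exceeded the limit on every array, at 13.2 to 453 times the limit. Of the 4 smooth muscle reporters miR-143 and miR-145 were above the limit on all 6 arrays, miR-145* on 1 and miR-143* on no array. Of the 6 blood cell markers on the array 5 were above it on no array, as were the 4 epithelial markers, the 2 neuronal markers and the liver marker. Of the 2 endothelial reporters miR-126-3p was above it on all 6 arrays and miR-126-5p on no array. Summed corrected densities were 78.1 to 110.8 for the 2 endothelial reporters in controls and 95.05 to 122.6 with TNF-α, against 7665 to 9508 and 8727 to 10330.2 for the 4 smooth muscle reporters. Of the 4 striated muscle markers matched by exact name miR-206 was above the limit on all 6 arrays and the other 3 on none. The marker miR-1 was not matched, and the reporter miR-1a was above the limit on no array. The part of those cells in the results below was not tested. With 3 arrays a group, precision is limited throughout.

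miR-709 was the brightest reporter of the array over the 6 arrays. Its density on control replicates 1, 2 and 3 was 42503, 34213 and 28279, and on TNF-α replicates 1, 2 and 3 it was 49160.4, 53568.5 and 44238. All TNF-α arrays lay above all control arrays, but the highest control array was only 1736 below the lowest TNF-α array. The control mean was 34998 ± 7144 and the TNF-α mean 48989 ± 4667 (SD, n = 3), a ratio of 1.40. The gap between the means was 13991, which is larger than the SD of either group. miR-709 held rank 1 on control replicate 1 and on every TNF-α array and rank 2, behind miR-21, on the other controls. miR-21, an abundant miRNA of proliferating VSMCs, had densities of 36394 ± 2489 in controls and 38342 ± 2116 with TNF-α.

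miR-5126 was at rank 4 by mean density. It read 25105, 24161 and 18821 on the control arrays and 31471, 29111 and 26860.4 on the TNF-α arrays. Here too the groups did not overlap, with 1755 between the nearest arrays, and the means of 22696 ± 3389 and 29148 ± 2306 (SD, n = 3) gave a ratio of 1.28. Its neighbours in brightness were miR-125b-5p above and miR-3960 below. miR-3960, which is linked to bone-forming differentiation, was lower with TNF-α (log2 -0.28, adjusted p = 0.0279 in limma).

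miR-2137 ranked 23 by mean density and 19 to 28 on single arrays. Its control densities of 5252, 5346 and 4435 lay below its TNF-α densities of 6754, 6460.5 and 6086 with no overlap. The means were 5011 ± 501 and 6434 ± 335 (SD, n = 3), a ratio of 1.28, and relative to the mean its SD was the smallest of the 4 in both groups. Beside it in brightness stood miR-669e* and miR-145, the contractile VSMC miRNA, neither of which passed the test.

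miR-5115 ranked 62 and is the dimmest of the 4. It read 1786, 1726 and 1212 on the control arrays and 2092, 1889 and 1533 on the TNF-α arrays. The groups overlapped, because TNF-α replicate 3 lay below control replicates 1 and 2. The means were 1575 ± 316 and 1838 ± 283 (SD, n = 3), a ratio of 1.17. Next to it were miR-146a, which restrains NF-kB signalling, and miR-29c, of the matrix-repressing miR-29 family. With quantile normalization miR-29c rose (0.43, adjusted p = 0.0175 in limma) and miR-146a stood at 0.13 (adjusted p = 0.307). Without normalization miR-29c missed the threshold (0.34, adjusted p = 0.0533).

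**Figure D1:**
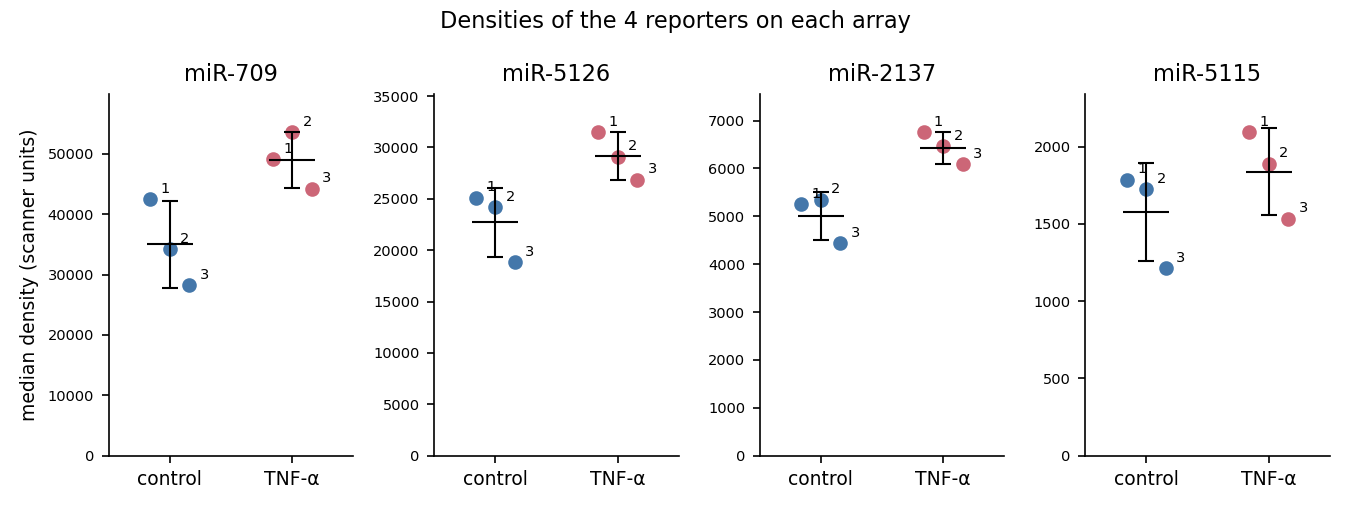
Median density in scanner units for each reporter, with 1 point per array (the number is the replicate), a horizontal line at the group mean and bars of 1 SD (n = 3). The TNF-α points of miR-709, miR-5126 and miR-2137 lie above all their control points, whereas those of miR-5115 overlap. Control replicate 3 is the lowest point in every panel, and TNF-α replicate 3 is the lowest TNF-α point in every panel.

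With 3 arrays against 3, an exact two-sided permutation test of a density cannot go below p = 0.1. It gave 0.1 for miR-709, miR-5126 and miR-2137 and 0.4 for miR-5115. A separation of this kind was common: 37.1% of the 642 tested reporters, and 19.6% of the 209 that exceeded the limit on every array, were higher with TNF-α without overlap in their densities. The count of 3 of 4 is read against those shares.

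The 4 reporters together took a larger part of the array signal on each TNF-α array than on any control array. A share is the corrected density of a reporter as a percentage of the sum over all 1078; spots of different probes differ in efficiency, so it is a share of light and not of molecules. miR-709 made up 7.78%, 6.21% and 6.22% in controls and 8.87%, 9.45% and 8.69% with TNF-α. miR-5126 made up 4.14% to 4.59% in controls and 5.13% to 5.68% with TNF-α. miR-2137 made up 0.953% to 0.968% in controls and 1.13% to 1.21% with TNF-α. miR-5115 lay between 0.257% and 0.368% with overlapping groups. Together the 4 accounted for 11.6% to 13.6% of the light in controls and for 15.4% to 16.1% with TNF-α. The level chose these reporters, so the shares carry no test. How often the shares of other reporters separated likewise was not counted. In densities, 19.6% of the 209 reporters above the limit on every array were higher with TNF-α without overlap.

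**Figure D2:**
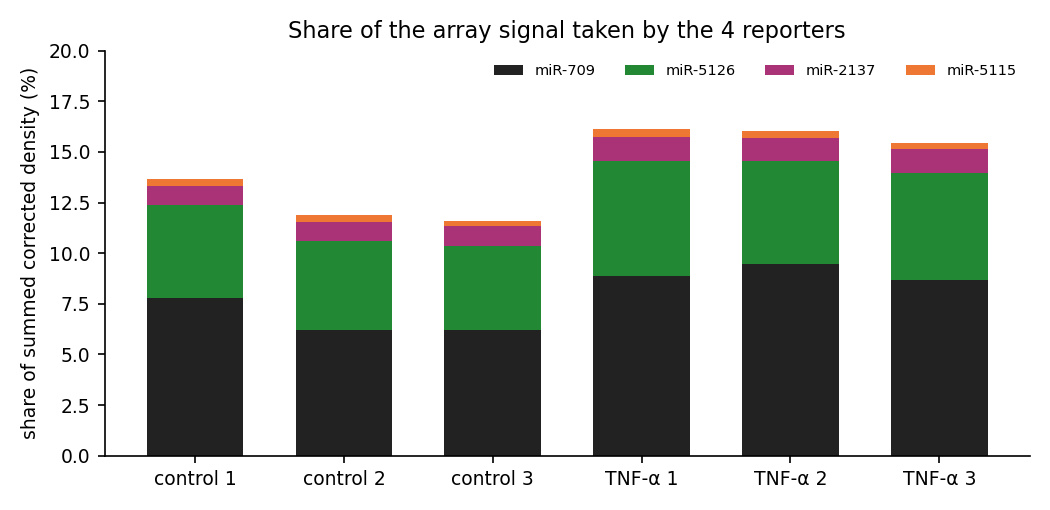
Stacked share of the summed corrected density of each array, in percent, for the 4 reporters. The stacks reach 11.6% to 13.6% in controls and 15.4% to 16.1% with TNF-α, and miR-709 and miR-5126 form most of each stack.

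In limma after quantile normalization, 2 of the 4 passed as higher with TNF-α, against 12.9% of the 642 tested reporters called higher (9.81% were called lower). The 642 include reporters near background. With a filter at the background limit 51 of 293 were called higher, and with a filter at 100, 38 of 189. The same 2 members passed in both. Among the 642, miR-2137 rose by 0.33 ± 0.06 on the log2 scale (SE, 1.26-fold, adjusted p = 0.0108, 95% interval 0.18 to 0.48). miR-5115 rose by 0.33 ± 0.10 (1.26-fold, adjusted p = 0.0459, interval 0.10 to 0.56). miR-709 did not pass, at 0.18 ± 0.09 (adjusted p = 0.171, interval -0.02 to 0.39). miR-5126 was at 0.00 ± 0.08 (adjusted p = 1), with an interval of -0.19 to 0.19.

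For the brightest pair these values reflect ranks and not densities. Quantile normalization gives each rank 1 value on all arrays, and the steps at the top are wide: 15.39 for the brightest reporter, 15.12 for the next, then 14.78 and 14.61. miR-709 stood at 15.39 on control replicate 1 and all TNF-α arrays and at 15.12 on the other controls. miR-5126 held rank 3 on replicate 1 of each group and rank 4 elsewhere, so it received 14.78, 14.61 and 14.61 in both groups. A reporter whose mean density was 1.28 times as high with TNF-α was thus given the same 3 values in controls and with TNF-α. miR-2137, in the denser ranks, took 4 values, from 12.27 to 12.32 in controls and 12.58 to 12.66 with TNF-α. miR-5115 took 5, from 10.42 to 10.68 and from 10.79 to 11.05, and its groups, which overlapped in density, no longer did.

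With no normalization between the arrays 3 of the 4 passed as higher, against 25.4% of tested reporters (6.39% were called lower). miR-709 rose by 0.50 ± 0.14 (SE, 1.41-fold, adjusted p = 0.0182 in limma), miR-5126 by 0.37 ± 0.12 (adjusted p = 0.0360) and miR-2137 by 0.36 ± 0.10 (adjusted p = 0.0189). miR-5115 did not pass (0.23 ± 0.15, adjusted p = 0.257). The median change of all tested reporters was 0.14 on that scale, and relative to it the 4 values were 0.36, 0.23, 0.22 and 0.09. The first 3 lay at the 93.9th, 84.3rd and 83.5th percentile of the changes and miR-5115 at the 65.1st.

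Scaling each array to a common median left the order the same, with miR-709 at 0.45, miR-5126 at 0.31 and miR-2137 at 0.31 past the threshold and miR-5115 at 0.18 short of it (adjusted p = 0.317 in limma; 19.6% of tested reporters were called higher). Cyclic loess, which bends the scale with brightness, called miR-5126 (0.24, adjusted p = 0.0497), miR-2137 (0.39) and miR-5115 (0.35) but not miR-709 (0.32, adjusted p = 0.0558), against 13.6% called higher. Scaling to the summed signal gave 0.42 for miR-709, 0.29 for miR-5126, 0.29 for miR-2137 and 0.16 for miR-5115, with 24% called higher. When the 4 reporters themselves were kept out of that sum, the values were 0.48, 0.35, 0.35 and 0.21, with 27.7% called higher. miR-2137 therefore passed under each of these scalings, and each of the others missed under at least 1.

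**Figure D3:**
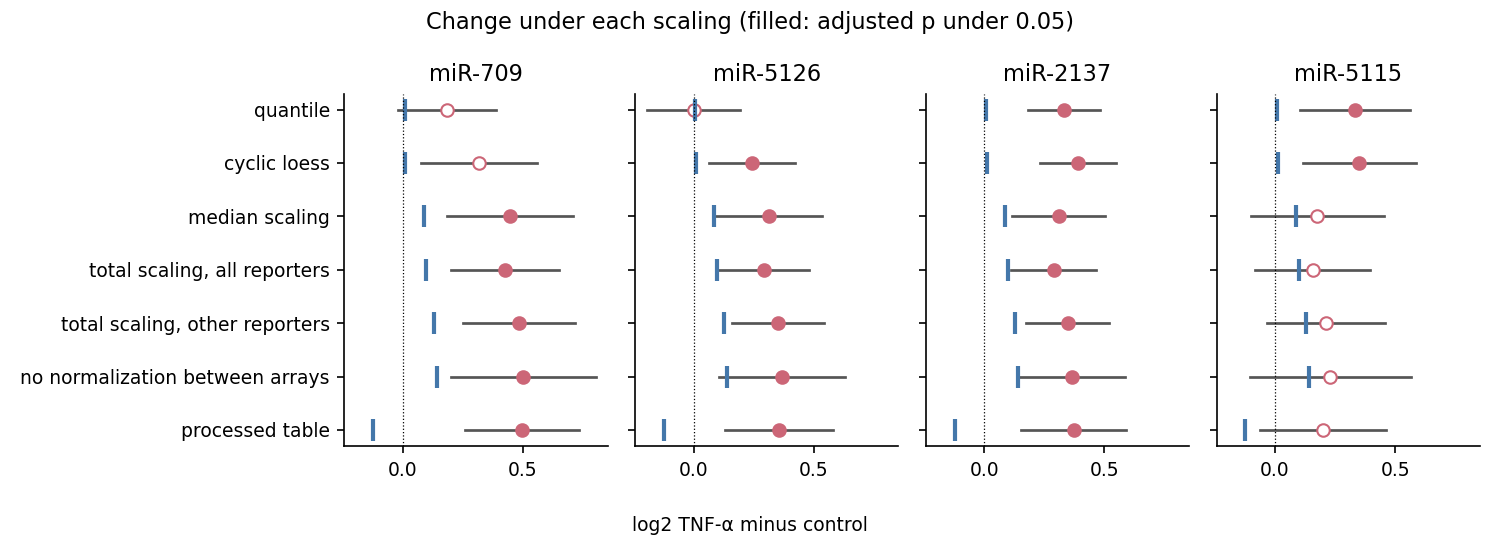
Change with TNF-α on the log2 scale for each reporter (columns) under 7 scalings (rows), with 95% intervals from limma. Filled points passed an adjusted p of 0.05, and blue ticks mark the median of all tested reporters. miR-5126 sits at 0.00 with quantile normalization and between 0.24 and 0.37 under the other settings.

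Single arrays decided several of these calls. After quantile normalization miR-709 passed without control replicate 1 (0.29, adjusted p = 0.0333 in limma), the control array on which it outranked miR-21. miR-5115 lost its call when control replicate 1 (0.35), 2 (0.36) or 3 (0.25) was left out, or TNF-α replicate 1 (0.26) or 2 (0.35), and of the 6 omissions it kept the call only in that of TNF-α replicate 3. miR-2137 passed without any 1 of the 6 arrays. With no normalization the call of miR-709 went when control replicate 2 (0.49) or 3 (0.36) or TNF-α replicate 2 (0.43) was left out. That of miR-5126 went with control replicate 2 (0.42) or 3 (0.24) or TNF-α replicate 1 (0.31) or 2 (0.37), and that of miR-2137 with TNF-α replicate 1 (0.33) or 2 (0.36). Leaving out an array also leaves fewer reporters and fewer arrays to the test.

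The files also give a standard deviation (SD) beside each median density, over units that the headers do not define. As a percentage of the density, its median over the 209 reporters above the limit was 7.64% to 8.97% on the 6 arrays. miR-709 was much tighter on 5 arrays, at 1.04% to 2.15%, and miR-5126 on 5, at 0.934% to 1.99%. The exceptions were both control readings. On control replicate 2 the SD of miR-709 was 5203, or 15.2% of its density, and on control replicate 1 that of miR-5126 was 4536, or 18.1%. The latter was the fourth largest percentage among the 209 reporters of its array. The reading of miR-709 ranked 17 from the largest on its array, under the 95th percentile of 15.8% there. miR-2137 lay at 2.24% to 4.03% and miR-5115 at 3.63% to 8.22% throughout.

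**Figure D4:**
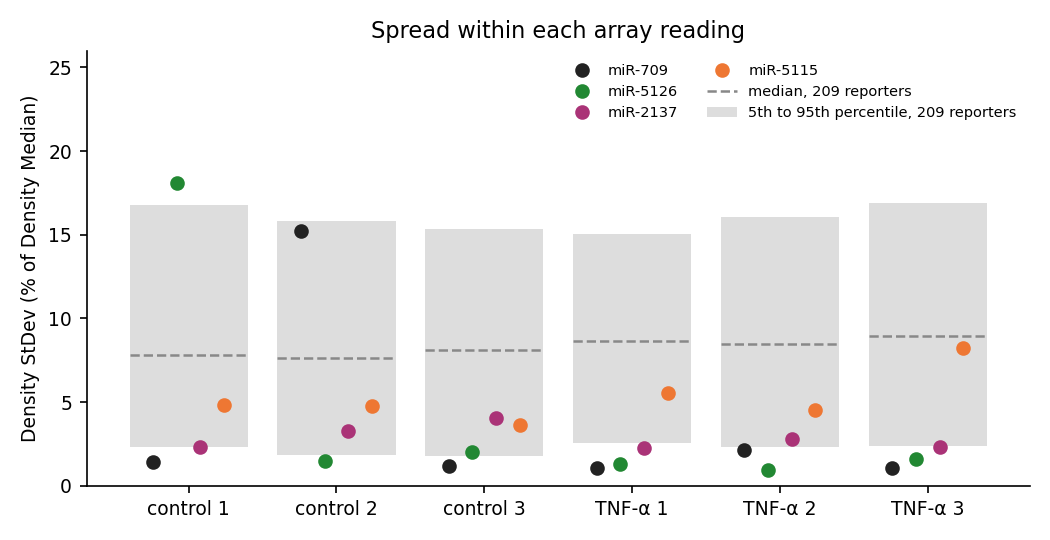
Density StDev as a percentage of Density Median on each array. Grey bars span the 5th to the 95th percentile of the 209 reporters above the background limit on all arrays, and dashed lines mark their median. miR-709 on control replicate 2 (15.2%) and miR-5126 on control replicate 1 (18.1%) stand far above the other readings of the same reporters.

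Without the arrays of these 2 readings and with no normalization, the change of miR-709 was 0.49 when control replicate 2 was left out (adjusted p = 0.0514 in limma, not past the threshold). That of miR-5126 was 0.45 when control replicate 1 was left out (adjusted p = 0.0275).

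The authors' processed intensities gave 3 of the 4 as higher with TNF-α without overlap. miR-709 stood at 40019, 34144 and 32109.8 in controls and 48841, 52638 and 47946 with TNF-α, a ratio of 1.41 with no overlap. The ratios of the processed means were 1.28 for miR-5126 and 1.29 for miR-2137, also without overlap, and 1.15 for miR-5115 with overlap. Among the 209 reporters above the limit, 22% of the processed intensities were higher with TNF-α without overlap. In limma on these values plus 32, 3 of the 4 passed as higher, against 13.7% of the 285 reporters tested there: miR-709 (0.50, adjusted p = 0.00432), miR-5126 (0.36, adjusted p = 0.0151) and miR-2137 (0.37, adjusted p = 0.0110). miR-5115 (0.20, adjusted p = 0.187) did not. The median change in that table was -0.12, so the 4 lay 0.62, 0.48, 0.50 and 0.32 above it. These values come from the same 6 arrays and are no separate check. For all 4 reporters the SD within each group was smaller than in the densities. For miR-709 it was 4107 in controls and 2491 with TNF-α, against 7144 and 4667. The processed values of these 4 were thus narrower within each group, and the adjusted p values here are read with that limit. Whether the same holds for other reporters was not tested.

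How the processed values were scaled is not stated, but the 4 reporters show that it was not 1 factor per array. The commonest difference between density and processed intensity was 69.11 on each control and 83.65 on each TNF-α array. Less that amount, the density equalled the processed value (within 0.05) for miR-5126 and miR-2137 on control replicate 1, while miR-709 on the same array was set to 94.3% of it. Control replicate 3, on which all 4 were dimmest, was raised to 113.8% for miR-709, 113.0% for miR-5126 and 117.7% for miR-5115 but only to 102.3% for miR-2137. TNF-α replicate 3 was treated likewise, with 108.6%, 113.8%, 114.9% and 100.5%. Reporters on 1 array were therefore scaled by different amounts. Among reporters above a density of 150, 82.0% had the commonest difference (within 0.05) on control replicate 1 and 68.9% on TNF-α replicate 1. On the other arrays 16.2% to 27% had it.

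**Figure D5:**
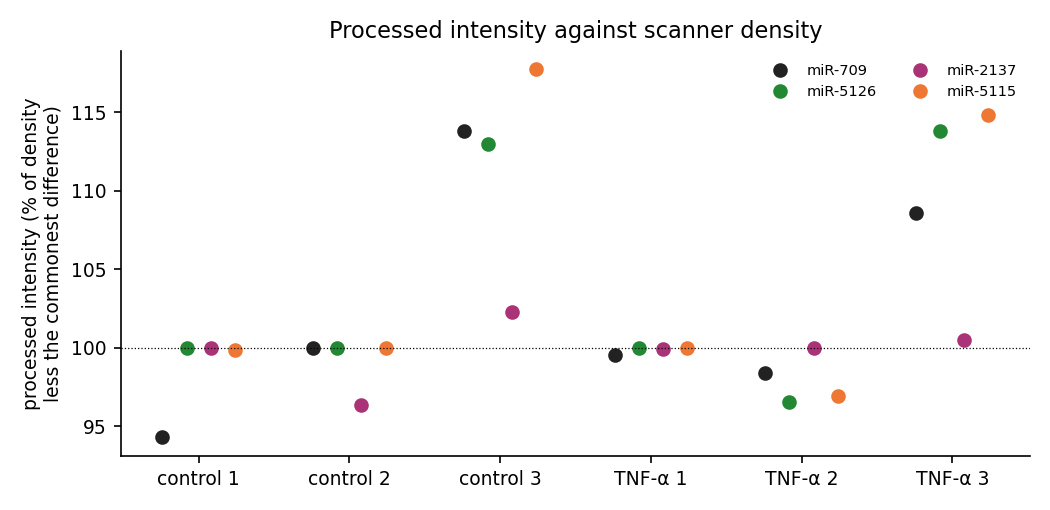
Processed intensity as a percentage of the density less the commonest difference of its array (dotted line, 100%). Replicate 3 of both groups shows miR-709, miR-5126 and miR-5115 raised to between 108.6% and 117.7%, while miR-2137 stays at 102.3% and 100.5%.

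Ratios between 2 reporters on the same array do not depend on any scaling factor of that array. miR-5126 over miR-2137 was the steadiest, at 4.28 to 4.82 in controls and 4.44 to 4.69 with TNF-α, a difference of 0.00 on the log2 scale. miR-709 over miR-5126 was 1.42 to 1.69 in controls and 1.56 to 1.84 with TNF-α. The ratio of miR-709 to miR-5115 ran from 20.4 to 24.5 in controls and from 24.1 to 29.8 with TNF-α. All 6 pairs overlapped between the groups, and their log2 differences ran from 0.00 to 0.26. The exact two-sided permutation p was 0.3 to 1 (adjusted over the 6 pairs, 0.45 to 1), but with 3 arrays a group it cannot go below 0.1, so this test could call no pair different.

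Across the 6 arrays without normalization the members moved together, with Pearson's r of 0.978 for miR-5126 and miR-2137 and 0.809 for miR-709 and miR-5115, the closest and the least close pair. These 6 points share the brightness of each array and the difference between the groups, and the values are a description. Among 205 other tested reporters above the limit on every array, the nearest patterns to miR-709 were miR-466c-5p (r = 0.986), miR-34a (0.965) and miR-351 (0.964). For miR-5126 they were miR-221 (0.993), miR-5112 (0.991) and miR-691 (0.977), and for miR-2137 miR-221 (0.993), miR-30d (0.992) and miR-328* (0.990). miR-5115 was nearest to miR-5109 (0.993), miR-3102 (0.945) and miR-5112 (0.933). High values were not rare over these 6 points. Of the 205 reporters 22 exceeded an r of 0.9 with miR-709, 24 with miR-5126, 27 with miR-2137 and 6 with miR-5115.

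Other entries registered close to these members differed in brightness. None of the 4 reporters numbered near miR-2137 (miR-2136, miR-2139, miR-2182 and miR-2183) was above the limit on all arrays, and 0 passed in limma with quantile normalization (0 also at an unadjusted p under 0.05), where their median change was -0.08. Of 38 further reporters numbered near miR-5115 and miR-5126, 26 were tested and 12 were above the limit on every array. Over the whole array 209 of 1078 reporters were above it on every array. Among those tested 6 rose and 4 fell, against 12.9% and 9.81% of all tested reporters, with a median of 0.16 against 0.01. The calls include miR-5098 and miR-5101 (higher) and miR-5129 (lower), which were above the limit on no array. They are named for that after their values were seen. The filter asks for 3 arrays, so a dim reporter can meet it through 1 group alone. The brightest 3 of that list differed: miR-5109 (0.16, adjusted p = 0.220), did not pass, miR-5107 fell (-0.69 ± 0.15, adjusted p = 0.0163) and miR-5112 rose (0.42 ± 0.07, adjusted p = 0.00617). Without normalization 11 rose and 2 fell there, against 25.4% and 6.39% of all tested reporters.

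Bright reporters moved in both directions. Of the 47 reporters that complete the brightest 50 beside miR-709, miR-5126 and miR-2137, 5 rose and 7 fell with quantile normalization and 3 rose and 7 fell without. The shares over all tested reporters were 12.9% and 9.81% with quantile normalization and 25.4% and 6.39% without.

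Among 18 other G-rich or late-registered reporters, all tested and 15 of them above the limit on all 6 arrays, 5 rose and 8 fell with quantile normalization, with a median of -0.28 against 0.01 over all tested reporters. The calls include miR-3473 (higher) and miR-3081* (lower), which were above the limit on 3 arrays and on 0 and are named for that after their values were seen. The brightest of the 18 were miR-3960 (-0.28), miR-149* (0.22 ± 0.06, adjusted p = 0.0336, but 0.10 and adjusted p = 0.481 without normalization) and miR-690, which rose by 0.63 ± 0.07 (adjusted p = 0.00114). Without normalization 3 of the 18 rose and 9 fell, against 25.4% and 6.39% of all tested reporters, with a median of -0.34 against 0.14. Of 16 conserved miRNAs abundant in smooth muscle, all above the limit on every array, 0 passed in limma with quantile normalization or without normalization, and 1 had an unadjusted p under 0.05 in each. With cyclic loess 1 was higher, and with scaling to the sum of all reporters 1 was lower. miR-21 (-0.18), miR-125b-5p (0.00) and miR-23b (0.10), the brightest 3, were among them, and the median of the 16 was 0.02 and 0.10 on the 2 scales.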

How the data were processed

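RNA of each culture was tailed, tagged and stained with Cy5, per the labels' protocols, so each of the 6 arrays has 1 colour. Per the file headers the authors deposited, for every reporter, a median density and its standard deviation. Both are linear intensities, with no background subtracted. A further table deposited by them holds processed intensities whose scaling is not stated. Scanner, software and reporter release are not named in the labels or headers used here.

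Densities were corrected with normexp, offset by 50, taken to log2 and quantile normalized in limma 3.58.1 (R 4.3.3). Reporters at 32 or more (before the offset) on at least 3 arrays were tested two-sided. Benjamini-Hochberg adjustment covered all 642, with a threshold of 0.05. The offset understates changes. Cultures were grown separately per the labels; replicates were numbered in accession order because the descriptions call 2 TNF-α arrays replicate 3. Hairpins were folded with RNAfold 2.7.2. The names given followed a rule: the 3 closest patterns per member, its neighbours in brightness and the 3 brightest of each list; miR-2861 was added after its sequence and values were seen. Members, lists and the rule were chosen with earlier results of these data known. Alternatives were other scalings, offsets, filters, variance models, the processed table, a block and each array left out; leaving arrays out without normalization was added after seeing the data. Only 30.2% of reporters matched a RefSeq mature name exactly, so a check of base content over all reporters is void and was not made.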

Additional observations from a re-analysis of the deposited data

How the results depend on the processing

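miR-2137 stayed past the threshold under all 21 alternatives fixed at the start, and miR-709, miR-2137 and miR-5115 were higher with TNF-α in every one; miR-5126, at 0.00 with quantile normalization, was between -0.06 and 0.07 with single arrays left out. miR-709 passed with no normalization (0.50), median scaling (0.45), scaling to the sum of all reporters (0.42) or of the other reporters (0.48) and in the processed table (0.50), and ran from 0.14 to 0.29 with single arrays left out. miR-5126 passed with those settings too (0.37, 0.31, 0.29, 0.35 and 0.36) and with cyclic loess (0.24). The call of miR-5115 was lost with no normalization (0.23), median scaling (0.18), both sums (0.16 and 0.21), an offset of 8 (0.34), no filter (0.33) and the processed table (0.20), and it was 0.25 to 0.42 with single arrays left out. Without normalization and with 1 array left out (added after seeing the data), miR-709 passed without control replicate 1 (0.65) or TNF-α replicate 1 (0.50) or 3 (0.57) and was 0.36 to 0.49 otherwise. miR-5126 passed without control replicate 1 (0.45) or TNF-α replicate 3 (0.43) and was 0.24 to 0.42 otherwise. miR-2137 missed without TNF-α replicate 1 (0.33) or 2 (0.36) and spanned 0.28 to 0.41. miR-5115 missed each time, with 0.33, 0.31 and 0.055 without controls 1, 2 and 3 and 0.13, 0.21 and 0.35 without TNF-α 1, 2 and 3. The number of changed reporters was 146, but 224 and 233 with the 2 sums, 77 with a filter at 100, and 70 to 91 with arrays left out, where fewer arrays and reporters were tested. Density ratios moved by less than their spread under the alternatives run. Shares moved by less than their SD over all 6 arrays, which includes the difference between the groups. With densities as deposited the mean share of miR-5126 went from 4.87% to 4.41% and that of miR-2137 from 1.07% to 0.974%. Those shifts exceeded the SD within controls and within TNF-α arrays (0.227 and 0.284 for miR-5126, 0.00738 and 0.0408 for miR-2137).

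Same-numbered arrays deviated together for numbers 1 and 3 (r of 0.21 and 0.31) but not 2 (-0.01), so the numbers were not taken to pair the samples. With the replicate block 103 reporters changed, miR-709 was 0.18, miR-5126 0.00, miR-2137 0.33 and miR-5115 0.33, and the members' calls were the same. Not every array correlated best with its own number. Closeness to background does not limit the members, which lay at 13.2 to 453 times the limit. Whether the brightest densities neared the upper end of the scanner's range was not tested.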
